A study of Mus musculus with 32 samples.

Results

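The clade B serpins are a family of mostly intracellular protease inhibitors that lack a classical secretion signal. An inhibitory serpin presents a flexible loop as bait, and a protease that cuts it is trapped in a covalent complex. SerpinB2, also called plasminogen activator inhibitor type 2 or PAI-2, is best known as an inhibitor of urokinase and as a product of activated macrophages, and other members guard leukocytes and epithelia against granzymes, neutrophil proteases, cathepsins or furin. The genes described here are 7 mouse members, Serpinb2, Serpinb10, Serpinb9, Serpinb1a, Serpinb8, Serpinb3c and Serpinb5, of 20145 genes with a named probe. They were chosen by their measured levels in the endothelial fraction, where Serpinb2, Serpinb9 and Serpinb10 differed between groups, and 4 further relatives were added. Each member was named through the RefSeq accession of its probe, and each had exactly 1 named probe, so that no second probe could be set beside it. Values in the endothelial fraction therefore describe how the genes were chosen and carry no test, and tests are given only for bulk tumour and for the endothelial against the bulk fraction of the same mouse.

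The tumours were grown from 4T1-Luc, a luciferase-marked line of mouse mammary carcinoma, placed in a mammary fat pad of Balb/C females aged 8 weeks. After 1 week, mice received sunitinib, an inhibitor of receptor tyrosine kinases including the VEGF receptors, at 40 mg/kg in PBS with 3.72% DMSO, or that vehicle alone. Tumours resected at 1300 mm3 came from vehicle mice, or from sunitinib mice labelled sensitive or resistant by their response up to day 8. Each was digested, the cells bound by PECAM-1 beads were taken as the endothelial (EC) fraction, and what remained was the bulk fraction, giving 4 EC and 4 bulk arrays per group from 12 mice. Bulk tumour was also measured at day 9 and at 600 mm3, with sunitinib or vehicle, on 2 arrays per group. All tumours thus came from 1 transplanted line. The labels number the mice, and the EC and bulk arrays of a 1300 mm3 tumour were paired by that number. For resistant mouse 4 the deposited files carry another mouse number than the labels, the same one in both fractions.

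A level is the log2 processed signal of a probe minus the 75th percentile of its array, so that 0 is that percentile itself and a step of 1 is a doubling. Levels are compared between arrays for a gene, never between genes, since probes differ in brightness. The EC arrays carried endothelial RNA: 11 of 12 endothelial marker genes were higher in EC than in bulk, with a median difference of 4.56, and Pecam1 stood at 1.23 to 2.44 in the EC group means and -1.30 to -0.71 in bulk at 1300 mm3. All 11 macrophage markers measured were also higher in EC, by a median of 2.46, and all 11 tumour epithelial markers were lower, by a median of -1.47. Within EC the endothelial mean was 2.71 in vehicle, 3.47 in sensitive and 2.42 in resistant. The macrophage mean was 3.41, 3.63 and 4.50. By limma all 12 endothelial markers were lower in EC resistant than in sensitive, where 5153 of 17946 genes were. Against vehicle 2 of 12 were lower, where 27.1% of all genes were. The part of these differences in the EC levels of the serpins was not tested. All 8 resistant arrays, EC and bulk, shared one slide that held no other group, so that an effect of that slide and one of resistance cannot be told apart. The vehicle and sensitive mice had their EC arrays on slide 1 and their bulk arrays on slide 3, so that only in resistant mice were both fractions of a mouse on the same slide. On the EC resistant arrays 46.1% to 52.9% of probes passed the software's test for signal well above background, against 79.9% to 86.4% on the other EC arrays. The bulk resistant array of mouse 2 stood apart, with 83.5% of probes called and a lowest called level of -3.05, against -5.78 to -5.55 on the other 3 bulk resistant arrays. Comparisons of resistant bulk tumour are given with and without it. The bulk vehicle array of mouse 3 also stood apart, with an endothelial marker mean of 1.24, against -2.40 to -2.16 on the other bulk vehicle arrays. Its neutrophil marker mean was 0.88, against 2.26 to 4.66 on the others. That array is part of every comparison with bulk vehicle unless said otherwise. In EC the resistant and vehicle groups differed in 8308 of 17946 genes (46.3%), 41.4% of them higher, and normexp background correction turned this to 72.9% of 7234 and moved the median of all genes to 0.24. Against sensitive, 38.0% of the called genes were higher, or 66.4% with normexp and 48.8% in the authors' deposited values. For the vehicle comparison the deposited values gave 52.7%.

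**Figure D1:**
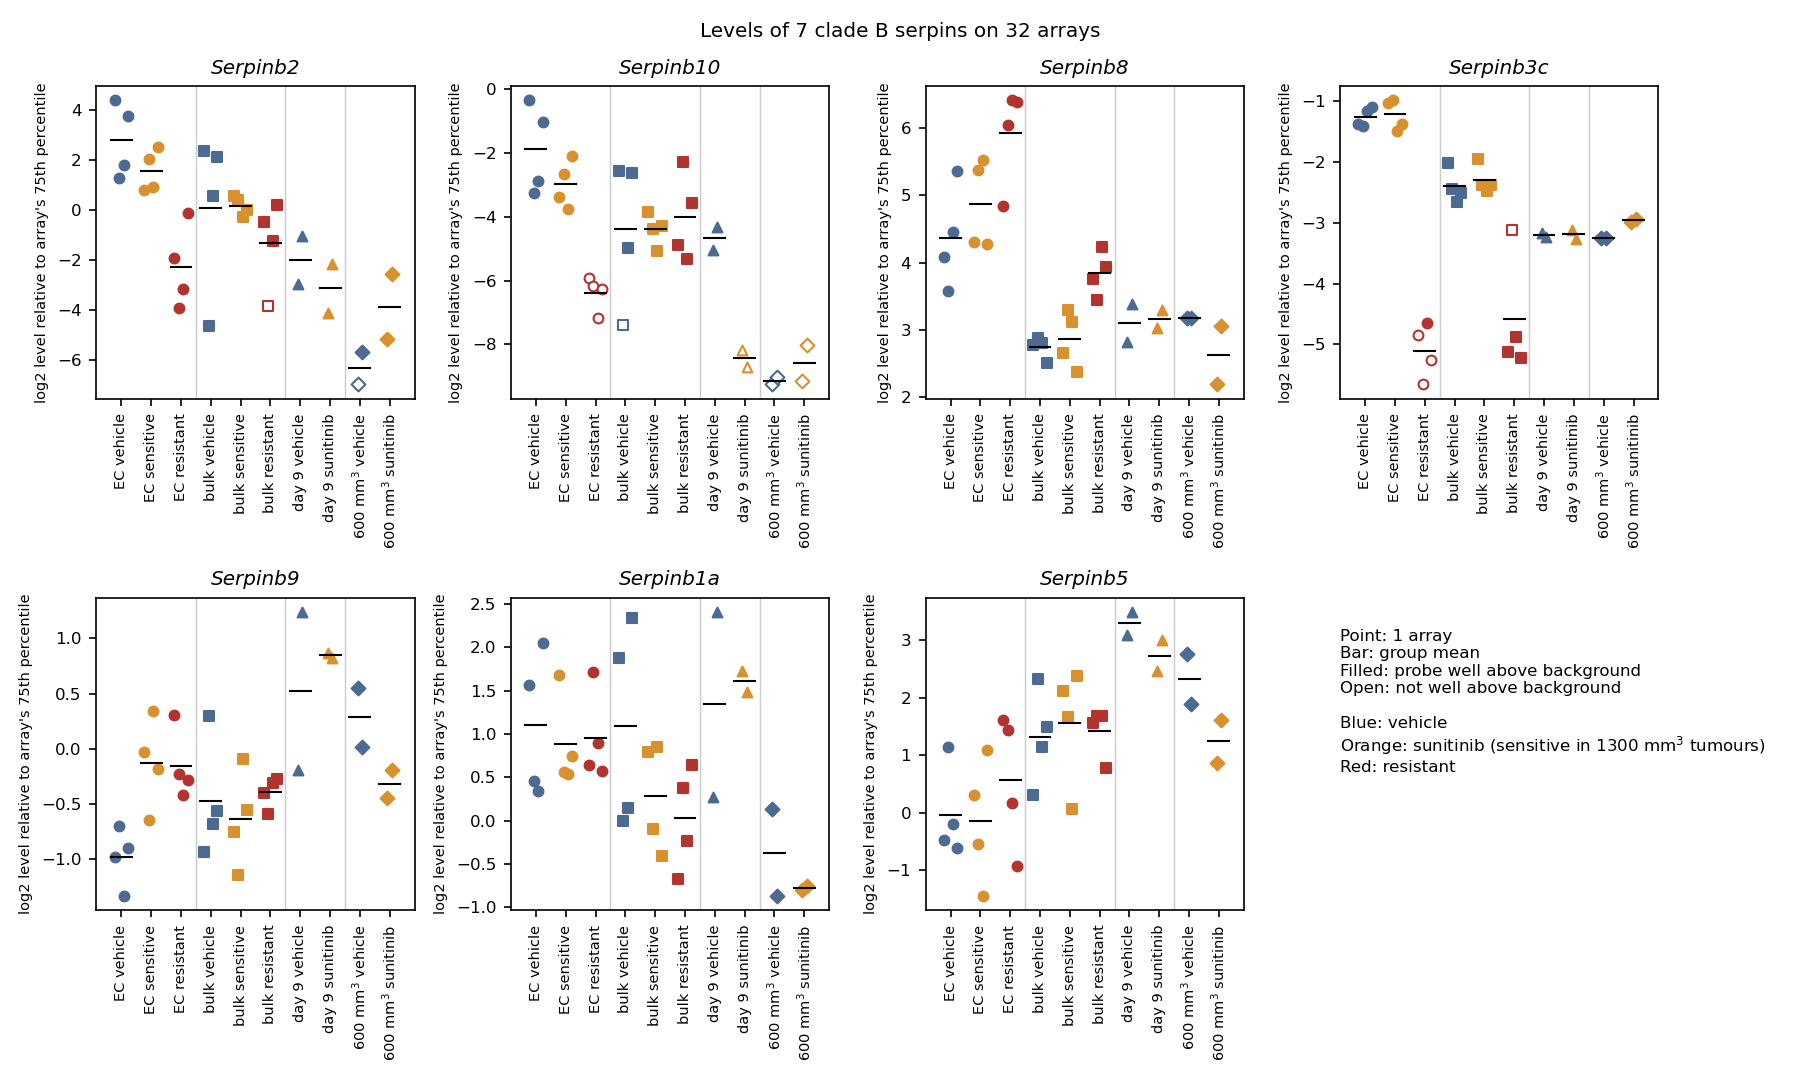
Level of each of the 7 serpins (y axis, log2 relative to the array's 75th percentile) on every array of the 10 groups (x axis). Points are arrays, bars are group means and open points are probes not well above background. Serpinb2 and Serpinb10 were highest in the EC vehicle group, at means of 2.79 and -1.88, and Serpinb8 was highest in EC resistant, at 5.92.

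Serpinb2, the gene for PAI-2, ranged from -6.99 to 4.38 and was well above background on 30 of 32 arrays. In the EC fraction it stood at 4.38, 1.26, 1.77 and 3.76 in vehicle mice 2 to 5. In sensitive mice 2 to 5 it was 0.80, 2.01, 0.91 and 2.52, and in resistant mice 1 to 4 it was -1.93, -3.93, -3.16 and -0.12. Every resistant array was thus below every vehicle and every sensitive array, while vehicle and sensitive overlapped. The means were 2.79 ± 1.51 (SD, n = 4) in vehicle, 1.56 ± 0.84 in sensitive and -2.29 ± 1.66 in resistant. Resistant was lower than vehicle by a difference of -5.08 (SE 0.86) and lower than sensitive by -3.84. These are the values that led to the choice of the gene, and they are not tested.

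In bulk tumour at 1300 mm3 the groups were not separated for Serpinb2. Vehicle mice 2 to 5 gave 2.33, -4.66, 0.55 and 2.09, sensitive mice 0.54, 0.39, -0.29 and 0.00, and resistant mice 1 to 4 gave -0.48, -3.86, -1.26 and 0.20. The single low vehicle array of mouse 3 and the low resistant array of mouse 2, where the probe was not well above background, lay far below the rest of their groups. In bulk tissue fewer cells of a type and less RNA per cell cannot be told apart. Resistant minus vehicle was -1.43 (SE 1.39), with an adjusted p of 0.594 by limma over all genes, and -0.59 (adjusted p 0.775) without resistant mouse 2. Without vehicle mouse 3 it was -3.01 (adjusted p 0.0625). Sensitive minus vehicle was 0.09 (SE 1.39, limma adjusted p 0.999), and it became -1.49 (adjusted p 0.762) without vehicle mouse 3.

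In the smaller tumours Serpinb2 lay between -6.99 and -1.04. Day 9 tumours stood at -2.96 and -1.04 with vehicle and at -4.13 and -2.17 with sunitinib. At 600 mm3 it was -6.99 and -5.71 with vehicle and -5.17 and -2.58 with sunitinib. The 600 mm3 arrays were lower on average but overlapped those of day 9, and the difference of -2.54 (SE 0.77) did not pass (limma adjusted p 0.112). Sunitinib minus vehicle, averaged over both stages, was 0.66 (SE 0.77, limma adjusted p 0.869). The 2 stages went opposite ways with sunitinib by group mean, lower at day 9 and higher at 600 mm3, and the difference between these effects was 3.63 (SE 1.53, limma adjusted p 0.324), a test that 0.166% of all genes passed.

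Serpinb10, also called bomapin and known from blood and bone marrow cells, was well above background on 21 of 32 arrays. In EC it was -0.36, -3.25, -2.89 and -1.04 in vehicle mice 2 to 5 and -3.38, -2.67, -3.75 and -2.12 in sensitive mice. The resistant arrays read -5.91, -6.17, -7.18 and -6.26, and none of the 4 was well above background, so that only a bound can be given. Resistant EC was at least 6.18-fold lower than vehicle and at least 2.90-fold lower than sensitive, taking the lowest signal called above background on each resistant array, or the probe's own signal where that was higher, as the upper limit. The fitted difference from vehicle, -4.49, shrank to -1.24 with normexp background correction and to -2.17 in the deposited values. The fitted difference from sensitive, -3.40, shrank to -0.37 (SE 0.43) with normexp and to -1.04 (SE 0.53) in the deposited values. These are smaller falls than the bounds, which hold only in the main scaling.

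In bulk at 1300 mm3 Serpinb10 averaged -4.40 in both the vehicle and the sensitive group. The vehicle arrays were -2.58, -7.39, -4.99 and -2.63, the sensitive arrays -3.85, -4.39, -5.08 and -4.29, and the resistant arrays -4.88, -2.30, -5.34 and -3.59. The groups overlapped, and vehicle mouse 3 was again the lowest array, not well above background. Resistant minus vehicle was 0.37 (SE 1.02, limma adjusted p 0.865), and -0.21 (adjusted p 0.897) without resistant mouse 2, the highest of its group. Without vehicle mouse 3 it was -0.63 (adjusted p 0.682).

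At day 9 Serpinb10 was well above background on both vehicle arrays, at -5.04 and -4.32, and on neither sunitinib array, at -8.16 and -8.69. At 600 mm3 none of the 4 arrays passed, with -9.25 and -9.01 in vehicle and -9.14 and -8.02 in sunitinib. The gene therefore entered the tests of the smaller tumours only through the day 9 vehicle arrays, the group where it was high. The fit gave a difference of -2.30 between 600 mm3 and day 9 (limma adjusted p 0.0145), but with the probe at background in 3 of the 4 groups this is neither a measured size nor a test of stage. The adjusted p was 0.173 with normexp and 0.104 in the deposited values. It was 0.0527 without 600 mm3 vehicle mouse 3 and 0.0532 without mouse 4, and without either day 9 vehicle array the gene no longer passed the filter.

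Serpinb2 and Serpinb10 are next to each other on chromosome 1 in the RefSeq gene order, with Serpinb8 as the following clade B gene. Chromosome 1 holds 12 clade B genes, 5 of them described here, and chromosome 13 holds 17, among them Serpinb1a and Serpinb9. Across arrays the levels of Serpinb2 and Serpinb10 went together, with a Pearson r of 0.86 over 32 arrays, 0.78 over the 20 bulk arrays and 0.61 for the deviations from group means. The r was 0.94 over the 31 arrays without bulk resistant mouse 2, and 0.92 over the 20 arrays where both probes were well above background. Within the vehicle mice at 1300 mm3, mice 2 and 5 were high for both genes in EC and in bulk, and mouse 3 was lowest in both fractions. These arrays share slides and, in part, mice, so the r values describe the set and carry no p.

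**Figure D2:**
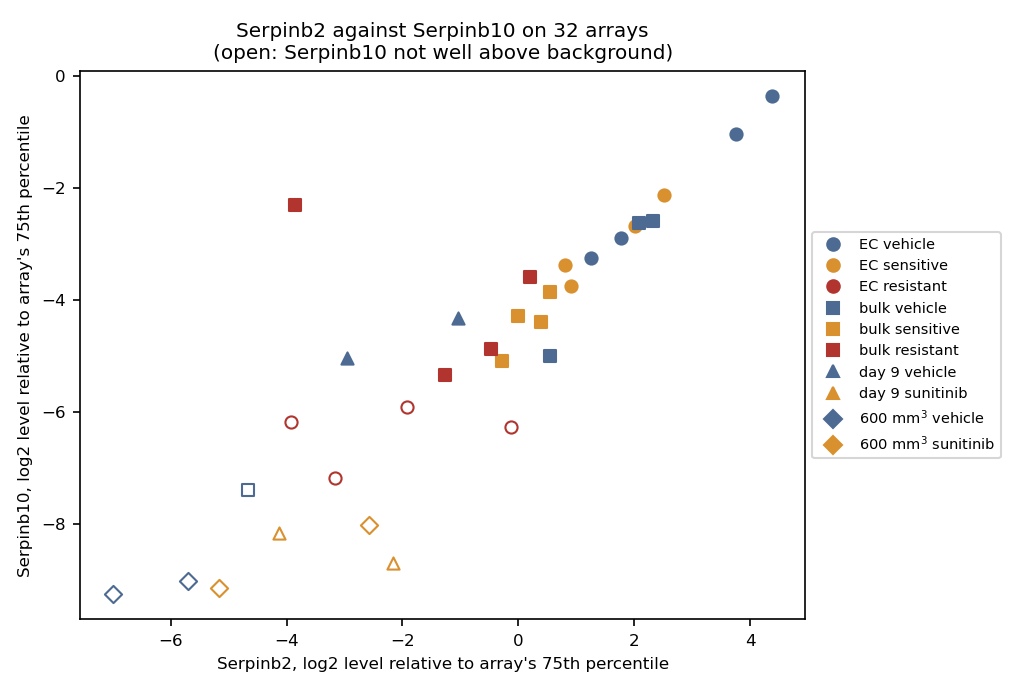
Level of Serpinb2 (x axis) against Serpinb10 (y axis), both log2 relative to the 75th percentile, on 32 arrays, with group by colour and shape and open points where Serpinb10 was not well above background. Most arrays lie along one diagonal from the 600 mm3 vehicle tumours to EC vehicle mice 2 and 5, and bulk resistant mouse 2 lies off it.

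The sequences before the transcript starts of these 3 neighbours are shown because the levels of Serpinb2 and Serpinb10 went together over the arrays while Serpinb8 went with neither (r 0.20 and 0.17). They are the 250 bases before the start from the RefSeq promoter table of build GRCm38.p6, which lists 6 of the 7 members. Capitals mark matches to the AP-1 motif TGANTCA or the cyclic AMP response element TGACNTCA, both on either strand, or to TATAAA on the forward strand, and no match overlaps another.
Serpinb2, chr1:107511173-107511422, plus strand: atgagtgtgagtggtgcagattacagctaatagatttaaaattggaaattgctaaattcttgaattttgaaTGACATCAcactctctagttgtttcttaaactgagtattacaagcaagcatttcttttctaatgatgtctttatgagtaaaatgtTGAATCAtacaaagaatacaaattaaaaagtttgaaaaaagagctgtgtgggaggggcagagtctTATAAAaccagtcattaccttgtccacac
Serpinb10, chr1:107528753-107529002, plus strand: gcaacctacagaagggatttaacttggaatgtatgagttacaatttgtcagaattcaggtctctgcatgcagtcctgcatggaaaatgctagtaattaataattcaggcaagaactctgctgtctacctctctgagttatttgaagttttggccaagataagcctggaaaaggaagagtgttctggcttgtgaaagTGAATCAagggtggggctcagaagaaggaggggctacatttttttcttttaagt
Serpinb8, chr1:107589756-107590005, plus strand: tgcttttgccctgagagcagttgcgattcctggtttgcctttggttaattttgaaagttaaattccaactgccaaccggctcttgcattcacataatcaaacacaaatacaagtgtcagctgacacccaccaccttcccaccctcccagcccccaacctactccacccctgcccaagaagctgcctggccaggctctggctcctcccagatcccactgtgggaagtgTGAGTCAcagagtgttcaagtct

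In the Serpinb2 sequence the response element TGACATCA begins at position -179 from the start, an AP-1 match TGAATCA at -94 and TATAAA at -29. Serpinb10 has the same AP-1 letters TGAATCA at -54, and neither the response element nor TATAAA in this window. Serpinb8 has TGAGTCA at -23 and again at 14, beyond the printed stretch. Of all 32851 windows of 300 bases in the table, running to 50 bases past the start, 7.8% hold the AP-1 letters, 8.8% the response element and 8.3% TATAAA. Among the 6 members in the table, 4 have the AP-1 letters (Serpinb5 is the fourth), and Serpinb2 and Serpinb3c have both of the other motifs. GATAA on either strand, in 25.4% of windows, was found in that of Serpinb10 and in a second listed window of Serpinb2. The C/EBP motif TTGCNNAA, in 10.8%, was found only in Serpinb2, and the NF-kB motif, in 8.5%, in none of the 6. A match of letters is a description of the sequence and shows no binding.

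The genes whose levels were most like those of Serpinb2 over 32 arrays, among 16702 candidates well above background on at least 16 arrays, were F5, Lsmem1, Ereg, Ldhc and Ankrd33b, with r from 0.87 to 0.89. F5 encodes coagulation factor V and Ereg the growth factor epiregulin. For Serpinb10 they were Ldhc (0.93), F5 (0.89), Alox15 (0.88), Il4 (0.87) and Epx (0.87), where Epx is eosinophil peroxidase and Alox15 an arachidonate lipoxygenase. Over the 20 bulk arrays these r values were 0.81 to 0.87 for Serpinb2 and 0.82 to 0.90 for Serpinb10.

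Markers of eosinophils moved with Serpinb10. Of 10 such genes, all 10 were lower in EC resistant than in EC vehicle by limma, where 27.1% of all genes were lower, with a median difference of -4.08 against 0.03 over all genes. Prg2, a granule major basic protein, fell by 6.36 (SE 0.92, limma adjusted p 1.32e-04), and Epx, on none of the 4 resistant arrays above background, was at least 10.4-fold lower. The mean level of the 10 markers was -1.87 to 1.54 on the EC vehicle arrays, -2.07 to -1.02 on the sensitive and -4.92 to -3.90 on the resistant. The resistant levels lie near the lowest level called on those arrays, -4.94 to -4.09, so the size of the list's fall is not measured. Epx, Prg3 and Il5ra were above background on no EC resistant array and entered the fit only through the other EC arrays. The list was also chosen with earlier results of these data known, so the count of 10 is no independent support. Those arrays also shared a slide with no vehicle or sensitive array. Of 8 adipocyte markers 5 were lower there and 0 higher, with a median of -1.72. Of 11 macrophage markers 0 were lower and 3 higher, with a median of 1.01. In bulk the ranges were -4.03 to -0.32 in vehicle, -2.64 to -1.75 in sensitive and -3.39 to -0.97 in resistant. Over 32 arrays Serpinb10 and this mean had an r of 0.83, or 0.80 for deviations from group means, and for Serpinb2 the values were 0.75 and 0.55. Neutrophil markers had an r of 0.75 with Serpinb10 and 0.64 with Serpinb2. Macrophage markers had an r of -0.01 with Serpinb10 and 0.01 with Serpinb2, or -0.25 and -0.21 for deviations from group means. The part of these cells in the levels of either serpin was not tested.

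Serpinb2 also went with a list of 15 NF-kB target and inflammatory genes, at an r of 0.79 over 32 arrays and 0.81 for deviations from group means. Its mean level was 3.61 to 4.81 on EC vehicle arrays and 3.16 to 4.80 on EC resistant arrays, which overlapped, with group means of 4.27 and 3.89. Against vehicle, 3 of 15 genes were lower in EC resistant (Cxcl1, Tnfaip3 and Nfkb2, differences of -0.95, -0.73 and -0.48) and none higher, where 27.1% and 19.2% of all genes were. The median difference of the list was -0.48, against 0.03 over all genes, and 3 of 15 had a higher mean in resistant. On the bulk vehicle arrays the list mean was 0.63 in mouse 3 and 3.64 to 3.84 in the other mice. On the 8 arrays of smaller tumours it was 0.36 to 1.27.

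**Figure D3:**
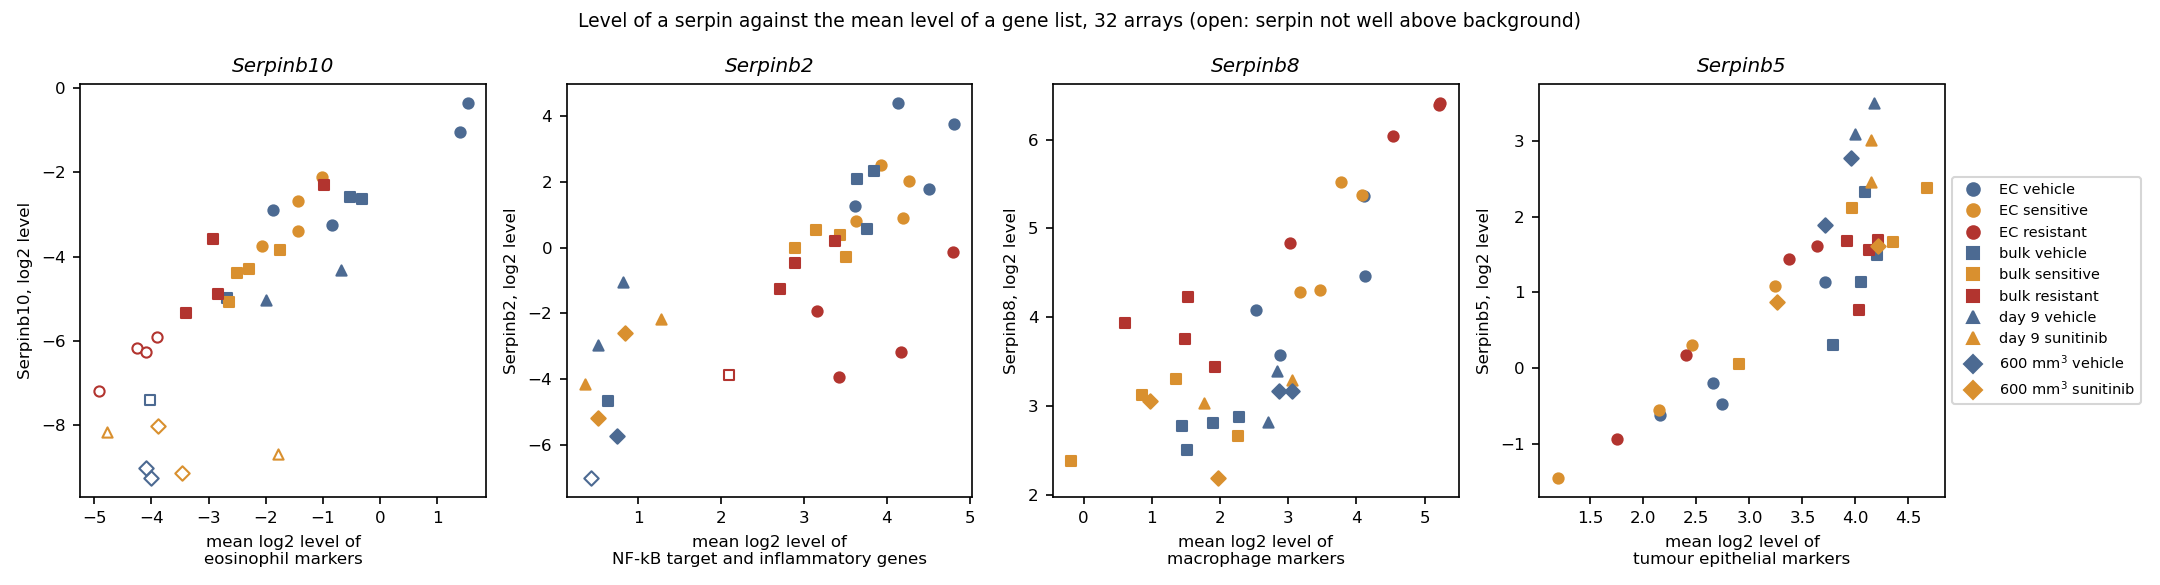
Level of Serpinb10, Serpinb2, Serpinb8 and Serpinb5 (y axes, log2 relative to the 75th percentile) against the mean level of a gene list on the same array (x axes, log2), for 32 arrays. The panels show eosinophil markers (r 0.83), NF-kB target and inflammatory genes (0.79), macrophage markers (0.79) and tumour epithelial markers (0.86); in the second panel the EC resistant arrays lie below the others at like list levels.

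PAI-2 acts on the plasminogen system, and 13 genes of that system were followed beside it. Urokinase (Plau) averaged 3.45 ± 0.81 (SD, n = 4) in EC vehicle, 3.44 ± 0.22 in sensitive and 4.45 ± 0.80 in resistant, a resistant minus vehicle difference of 1.00 (SE 0.42, limma adjusted p 0.0737). Its receptor Plaur differed by -0.23 (adjusted p 0.669), and tissue plasminogen activator Plat by -0.48 (adjusted p 0.175). Of the 12 genes tested there, 1 was higher (Anxa2, by 0.48, a plasminogen co-receptor) and 2 were lower: Vtn, vitronectin, by -2.20, and Serpini1, neuroserpin, by -1.51. The median of the list was -0.25, against 0.03 over all genes. In bulk at 1300 mm3 none of the 12 was called in any of the 3 comparisons, where 7.98% of all genes passed for resistant against vehicle. Without resistant mouse 2, 1 of 12 was lower than in vehicle, where 32.5% of all genes passed. Against sensitive 1 was higher and 1 lower, where 12.6% and 24.8% of all genes were.

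The same system was higher in the EC than in the bulk fraction of a mouse for 6 of 13 genes and lower for 3, where 22.6% of all genes were higher and 29.3% lower. Plau was higher by 0.95 (SE 0.19, limma adjusted p 0.00138) and Plaur by 0.78 (SE 0.14, adjusted p 6.32e-04). Between day 9 and 600 mm3, 3 of 12 fell by limma, where 2.74% of all genes did, among them Plau by 1.39 (adjusted p 0.0282) and Vtn by 3.00 (adjusted p 0.0483).

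Serpinb8, an inhibitor of furin, lay between 2.19 and 6.41 and was well above background on all 32 arrays. In bulk at 1300 mm3 it was 2.77, 2.88, 2.81 and 2.51 in vehicle mice 2 to 5, and 2.66, 3.30, 3.12 and 2.38 in sensitive mice. Resistant mice 1 to 4 gave 3.76, 3.44, 4.23 and 3.94, each above every vehicle and every sensitive array. The rise over vehicle was 1.10 (SE 0.23, limma adjusted p 0.0162), and over sensitive 0.98 (SE 0.23, adjusted p 0.0207). Without resistant mouse 2 the rises were 1.23 (adjusted p 0.00156) and 1.11 (adjusted p 0.00264). The call against vehicle was lost without resistant mouse 3 (adjusted p 0.0568), resistant mouse 4 (0.0520) or vehicle mouse 5 (0.0556), with differences of 0.97 to 1.07. The call against sensitive was lost without resistant mouse 3 (adjusted p 0.0656) or 4 (0.0623), or sensitive mouse 2 (0.0561) or 5 (0.0570).

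In EC, Serpinb8 was 4.08, 3.57, 4.46 and 5.36 in vehicle, 4.31, 5.38, 5.52 and 4.28 in sensitive, and 4.84, 6.04, 6.41 and 6.39 in resistant. The resistant arrays were highest on average, 5.92 ± 0.74 (SD, n = 4), with overlap with both other groups. The EC fraction stood above the bulk fraction of the same mouse in 12 of 12 mice, by 1.90 on average (SE 0.19, limma adjusted p 1.70e-05), where 51.9% of all genes differed between the fractions and 7.65% were higher in every mouse. Among the 4 resistant mice, whose 2 fractions shared a slide, the difference was 2.08 ± 0.69 (SD, n = 4) and ran from 1.08 to 2.60. Macrophage markers were also higher in EC in all 11 cases, mast cell markers in all 8 and endothelial markers in 11 of 12. Over 32 arrays Serpinb8 had an r of 0.79 with the macrophage mean. It was 0.73 with the endothelial, 0.70 with the mast cell and -0.74 with the tumour epithelial mean. For deviations from group means these 4 were 0.53, 0.14, -0.15 and -0.60. In EC the macrophage mean was 2.53 to 4.13 on vehicle and 3.03 to 5.23 on resistant arrays. The part of any of these cells in the level of Serpinb8 was not tested. In bulk the macrophage mean was 1.44 to 2.28 on vehicle arrays and 0.61 to 1.93 on resistant arrays, which overlapped. In the smaller tumours Serpinb8 lay between 2.19 and 3.39 and passed no test.

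Furin itself was higher in EC than bulk by 0.64 (SE 0.13, limma adjusted p 0.00144). It was 1 of 18 genes listed as proteases of this family and their partners. Of these 4 were higher and 5 lower in EC, where 22.6% of all genes were higher and 29.3% lower. In bulk resistant tumour 1 of the 18 was lower than in vehicle, where 5.93% of all genes were: Gzmk, a granzyme, by -2.81 (SE 0.26, limma adjusted p 1.07e-04). Without resistant mouse 2 that difference was -3.09 (SE 0.17, adjusted p 1.77e-07).

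Serpinb3c, one of the mouse relatives of the human squamous cell carcinoma antigens, fell in resistant bulk tumour. Vehicle mice gave -2.01, -2.44, -2.65 and -2.50 and sensitive mice -1.95, -2.37, -2.47 and -2.37. Resistant mice 1, 3 and 4 gave -5.12, -4.88 and -5.23, and mouse 2 gave -3.12, not well above background on its array. All resistant arrays were lower than all others, by -2.19 against vehicle (SE 0.41, limma adjusted p 0.00790) and by -2.30 against sensitive (SE 0.41, adjusted p 0.00457). Without mouse 2 the differences were -2.68 (adjusted p 1.12e-06) and -2.79 (adjusted p 6.98e-07). With normexp they were smaller but still called, at -1.20 (adjusted p 0.0152) and -1.33 (adjusted p 0.00576).

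The level of Serpinb3c went with the slide. On slide 1 (EC vehicle and sensitive) it stayed between -1.48 and -0.98, on slide 3 (bulk vehicle and sensitive) between -2.65 and -1.95, and on slide 4 (the smaller tumours) between -3.27 and -2.93. On slide 2, which held all resistant arrays of both fractions, 7 of 8 arrays lay between -5.66 and -4.65. In EC resistant only 1 of 4 arrays was well above background, so that the mean of -5.11, against -1.25 in vehicle, rests mostly on upper limits. The fitted difference from vehicle was -3.85, or -1.45 with normexp and -1.80 in the deposited values. Whether the slide or the group sets these levels cannot be told apart, and the EC against bulk difference, 0.57 (SE 0.22, limma adjusted p 0.0518), lies across slides except in resistant mice, where it was -0.52 ± 1.36 (SD, n = 4) with 3 of the 4 EC arrays not well above background. Without resistant mouse 2 it was 0.79 (adjusted p 4.36e-05), and in the deposited values -0.06 (adjusted p 0.677). Over vehicle and sensitive mice only, a choice made after the data were seen, it was 1.11. In those mice every EC array was on slide 1 and every bulk array on slide 3, so no test is given.

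Serpinb9 encodes the mouse inhibitor of granzyme B and protects cells that carry or meet that protease. It was well above background on all 32 arrays, which spanned only -1.33 to 1.24. In EC vehicle mice it was -0.98, -0.70, -1.33 and -0.90, against -0.03, -0.64, 0.34 and -0.18 in sensitive and 0.31, -0.23, -0.42 and -0.28 in resistant mice. Every sunitinib array was above every vehicle array, by 0.85 (SE 0.23) in sensitive and 0.82 (SE 0.23) in resistant, and the sunitinib groups overlapped. As with Serpinb2, these EC values chose the gene and are given without a test. The sensitive and vehicle arrays also lay in different columns of their slide.

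Bulk tumour did not show that pattern for Serpinb9. The bulk vehicle arrays were -0.93, 0.30, -0.68 and -0.56, the sensitive -0.75, -1.14, -0.09 and -0.55, and the resistant -0.40, -0.59, -0.31 and -0.27. All 3 groups overlapped, with differences from vehicle of -0.16 (SE 0.28, limma adjusted p 0.999) for sensitive and 0.08 (SE 0.28, adjusted p 0.900) for resistant, or 0.14 (adjusted p 0.752) without resistant mouse 2. The highest group means were at day 9, 0.84 with sunitinib and 0.53 with vehicle, where the arrays read 0.87 and 0.82, and -0.19 and 1.24. Stage moved it by -0.70 (SE 0.32, limma adjusted p 0.249). Without day 9 vehicle mouse 1 that became -1.06 (adjusted p 0.0461). Between fractions the difference was 0.08 (SE 0.10, limma adjusted p 0.564), the average of -0.51 in vehicle mice, where EC was lower in all 4, 0.51 in sensitive mice, where EC was higher in all 4, and 0.24 in resistant mice, where EC was higher in 2 of 4.

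The genes most like Serpinb9 over 32 arrays were Tgtp2 (r 0.82), Kctd11 (0.77), Irgm1 (0.76), Irgm2 (0.75) and Cpt2 (0.74). Tgtp2, Irgm1 and Irgm2 are GTPases induced by interferon. Over 20 bulk arrays the same 5 had r from 0.72 to 0.84. Granzyme B (Gzmb), its target protease, was lower in EC than bulk by -1.50 (SE 0.33, limma adjusted p 0.00297) and passed in no comparison of EC groups, at 1.34 (SE 1.03, adjusted p 1.00) for sensitive against vehicle and -0.50 (SE 1.03, adjusted p 0.716) for resistant against vehicle.

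Serpinb1a is a mouse counterpart of the monocyte and neutrophil elastase inhibitor. Its range was -0.87 to 2.41, always well above background. The 600 mm3 arrays, at 0.13 and -0.87 with vehicle and -0.80 and -0.75 with sunitinib, were all below those of day 9, at 0.27 and 2.41, and 1.73 and 1.48. The difference of -2.04 (SE 0.47) did not pass (limma adjusted p 0.0607), in a comparison where 4.33% of all genes were called and 12.6% had groups that do not overlap. It passed with normexp (-1.95, adjusted p 0.0368), in the deposited values (-1.92, adjusted p 0.0473) and without day 9 vehicle mouse 1 (-2.58, adjusted p 0.0132). At 1300 mm3 no bulk comparison passed, and resistant minus vehicle was -1.06 (SE 0.56, limma adjusted p 0.288), or -1.18 (adjusted p 0.164) without resistant mouse 2.

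Across fractions Serpinb1a was higher in EC by 0.52 (SE 0.16, limma adjusted p 0.0190), in 8 of 12 mice. The mean difference was 0.02 in vehicle, 0.60 in sensitive and 0.93 in resistant mice. Over vehicle and sensitive mice only it was smaller, at 0.31. That choice of mice was made after the data were seen, and no test is given for it. Among its proteases, neutrophil elastase (Elane) differed between fractions by 0.04 (SE 0.16, limma adjusted p 0.869) and cathepsin G (Ctsg) by -0.21 (SE 0.48, adjusted p 0.744). In EC resistant, Elane was lower than in vehicle by -2.04 (SE 0.18, limma adjusted p 1.56e-06), where 27.1% of all genes were lower. All resistant arrays shared a slide with no other group, so slide and group cannot be told apart. In bulk the same difference was -0.83 (SE 0.40, limma adjusted p 0.242), or -0.90 (adjusted p 0.134) without resistant mouse 2.

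Serpinb5, maspin, is an epithelial serpin without inhibitory activity that was first described in mammary epithelium. It was higher in bulk than in EC in 11 of 12 mice, with an EC minus bulk difference of -1.30 (SE 0.18, limma adjusted p 1.26e-04). The differences were -0.77 to -2.11 in vehicle, -1.29 to -2.22 in sensitive and 0.05 to -1.69 in resistant mice. Resistant mouse 1 was the exception, at 0.05. Tumour epithelial markers were likewise lower in EC, all 11 of 11, and Serpinb5 had an r of 0.86 with their mean over 32 arrays and 0.90 for deviations from group means. Treatment groups overlapped in both fractions, and resistant minus vehicle in bulk was 0.11 (SE 0.53, limma adjusted p 0.930), or 0.02 (adjusted p 0.980) without resistant mouse 2.

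The smaller tumours held the highest Serpinb5 levels, 3.10 and 3.50 at day 9 with vehicle and 2.46 and 3.01 with sunitinib. At 600 mm3 they were 2.77 and 1.89 with vehicle and 0.87 and 1.62 with sunitinib. Sunitinib minus vehicle, averaged over both stages, was -0.83 (SE 0.29) and did not pass (limma adjusted p 0.386), in a comparison that 0 of 17443 genes passed. The stage difference of -1.23 (SE 0.29, limma adjusted p 0.0629) passed with normexp (-1.15, adjusted p 0.0419) and in the deposited values (-1.24, adjusted p 0.0331).

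**Figure D4:**
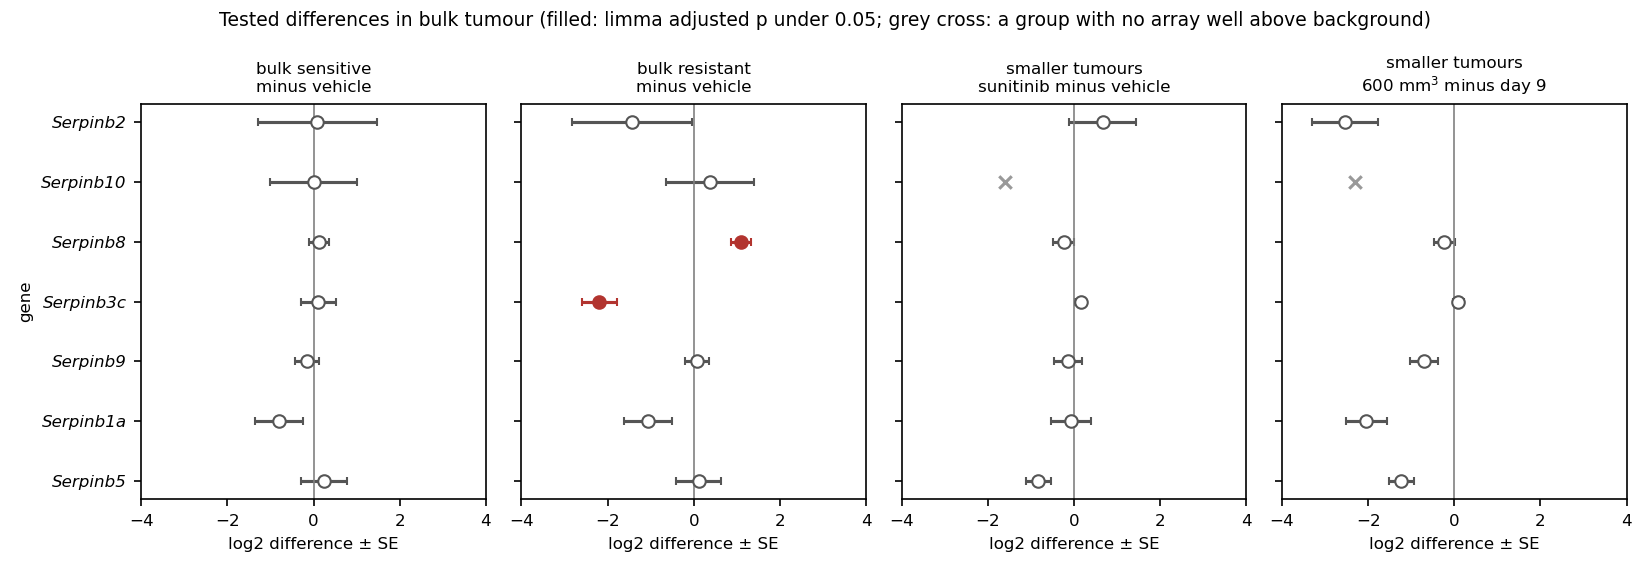
Log2 differences (x axes) with standard errors for the 7 serpins (y axis) in 4 tested comparisons of bulk tumour, filled where the limma adjusted p was under 0.05. Grey crosses without an error mark Serpinb10 in the smaller tumours, where it was at background in 3 of 4 groups. Serpinb8 (1.10) and Serpinb3c (-2.19) were called in resistant against vehicle, and none in sensitive against vehicle or in sunitinib against vehicle of the smaller tumours.

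Counted over the family, 2 of 7 members passed in bulk resistant against vehicle, 1 higher and 1 lower, where 7.98% of 16972 genes passed, 2.04% higher and 5.93% lower. The same 2 passed against sensitive, where 12.3% of genes did, 3.33% higher and 8.94% lower. Without resistant mouse 2 the count of members stayed at 2 of 7 in both, while the share of all genes that passed was 32.5% of 16697 (10.8% higher and 21.6% lower) against vehicle and 37.4% against sensitive. The members' share is thus above the background with that array and not without it. Groups did not overlap for these 2 members either time, beside 13.4% and 17.8% of all genes, or 41.3% and 48.1% without resistant mouse 2. None passed for bulk sensitive against vehicle, where limma called 0 of 16972 genes and 1085 had an unadjusted p under 0.05. None passed for sunitinib in the smaller tumours, where limma called 0 of 17443 and 1744 had an unadjusted p under 0.05. For stage the only member that passed was Serpinb10, which the filter let in through the group where it was high, and 0 of the other 6 did, where 4.33% of all genes passed. For the fractions 4 of 7 passed, 3 higher in EC and 1 lower, where 22.6% and 29.3% of all genes did. Without resistant mouse 2 it was 5 of 7, where 11955 of 18155 genes passed. The EC arrays in these differences also led to the choice of Serpinb2, 1 of the 4, so the count is no independent support. In EC, groups did not overlap for 4 of 7 members in resistant against vehicle, 3 of 7 against sensitive and 1 of 7 in sensitive against vehicle, beside 40.0%, 42.6% and 4.50% of all genes, and these counts follow from the choice of genes. All 7 members passed the filter on dim probes in every comparison.

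Within mice, the difference between fractions of Serpinb2 and of Serpinb10 had opposite signs in resistant and in other mice. These are also the mice whose fractions were on the same slide and on different slides, and the slide and the group cannot be told apart here. For Serpinb2 EC stood above bulk by 2.05, 5.92, 1.21 and 1.68 in vehicle mice 2 to 5 and by 0.26, 1.61, 1.20 and 2.52 in sensitive mice. It read below bulk in resistant mice 1 to 4, by -1.44, -0.07, -1.90 and -0.32. In resistant mouse 2 the bulk probe was not well above background, so the sign of -0.07 is not measured. The mean over the 3 groups was 1.06 (SE 0.38, limma adjusted p 0.0373), in 8 of 12 mice. That call was lost without resistant mouse 2 (adjusted p 0.0520) or 4 (0.0743), or sensitive mouse 3 (0.0686), 4 (0.0574) or 5 (0.0824). For Serpinb10 the group means were 2.51 in vehicle, 1.42 in sensitive and -2.35 in resistant mice, whose EC arrays were all at background, and their average of 0.53 (SE 0.28) did not pass (limma adjusted p 0.134). It passed without resistant mouse 2, at 0.70 (adjusted p 0.0273), with normexp (0.56, adjusted p 0.00147) and in the deposited values (0.45, adjusted p 0.0243). Over the vehicle and sensitive mice only it was 1.97, and 2.06 for Serpinb2. No test is given for the values over vehicle and sensitive mice only, since the low EC levels of resistant mice led to the choice of both genes. The mean over the 3 groups is not the contrast that chose them. It holds the same EC arrays, however, so its p-values are no independent support. The difference between treatment groups in the EC minus bulk values repeats the EC contrasts and was not tested.

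**Figure D5:**
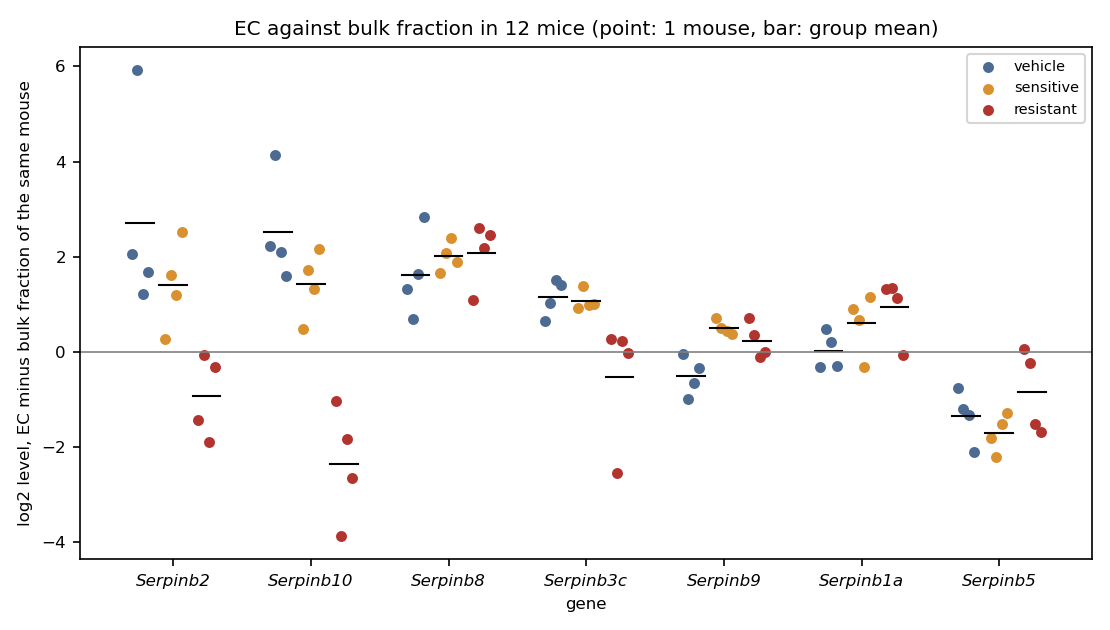
EC minus bulk level (y axis, log2) of each of the 7 serpins (x axis) in 12 mice, coloured by treatment group, with group means as bars. All 12 values of Serpinb8 lie above 0 and 11 of 12 of Serpinb5 below it, while Serpinb2 and Serpinb10 lie above 0 in all vehicle and sensitive mice and below it in all resistant mice. In resistant mice the EC probe of Serpinb10, and in mouse 2 the bulk probe of Serpinb2, were not well above background.

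Of the 20 other clade B serpins on the array, 9 could be tested in bulk at 1300 mm3 and 14 in EC. In bulk resistant against vehicle Serpinb6a rose by 0.66 (SE 0.15, limma adjusted p 0.0232). Serpinb11, above background on none of the 4 resistant arrays (the highest read -2.92), was at least 4.76-fold lower. Without resistant mouse 2 these were 0.75 (adjusted p 0.00197) and at least 7.65-fold. Against sensitive, Serpinb6d was higher by 0.80 (SE 0.23, limma adjusted p 0.0463) and Serpinb11 at least 6.54-fold lower. Without resistant mouse 2 these were 0.66 (adjusted p 0.0364) and at least 10.5-fold. Serpinb11 entered these fits only through vehicle and sensitive arrays, so no test is given for it. The resistant arrays also shared a slide with no other group, and slide and group cannot be told apart. Of the 9, 2 were higher and 5 lower than in vehicle without resistant mouse 2, where 10.8% of all genes were higher and 21.6% lower. Serpinb11 is among the 5. In EC resistant against vehicle 1 of 14 rose, Serpinb6c by 0.62 (SE 0.22, limma adjusted p 0.0340), and 6 fell, where 19.2% of all genes rose and 27.1% fell, with a list median of -0.89 against 0.03 over all genes. Of those that fell, Serpinb6e and Serpinb12 were at background on all 4 resistant arrays and at least 2.38-fold and 1.61-fold lower, and Serpinb11 and Serpinb9e were above it on 1 of 4 each. Between fractions 5 of 14 were higher in EC and 4 lower, where 22.6% of all genes were higher and 29.3% lower. Of those higher, Serpinb3d, Serpinb9d and Serpinb1b were above background on no bulk array and entered the test only through EC arrays, so that no size is given for them. Among those lower, Serpinb6b was measured on all arrays and fell by 0.88 (SE 0.13, limma adjusted p 2.06e-04).

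Ordered by group mean, 3 of the 63 pairs of neighbouring groups over the 7 members were both at background, all for Serpinb10. Of the other 60, 9 had arrays that did not overlap, 4 of them for Serpinb3c. For Serpinb2 the breaks lay between EC sensitive and bulk sensitive, and between the sunitinib and the vehicle tumours of 600 mm3. For Serpinb10 the break lay between day 9 vehicle and EC resistant, and for Serpinb8 after bulk resistant. Serpinb9 and Serpinb1a had none.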

How the data were processed

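Each of 32 single-colour Agilent arrays held one tumour fraction. The deposited scanner files give spot intensity values processed by Feature Extraction, version 10.7.3.1 per the file headers and 9.1 per the submitters' processing notes. The authors' deposited value table is on a linear scale normalised in R by a method not given in the sources used here. These intensity values were taken to log2 and served as an alternative, and their centring stays unknown. The deposited flags for signal well above background, saturation and outliers are of another kind (other unit, 0 or 1 per spot). The log2 processed signal minus each array's 75th percentile was used, with outlier spots left out (628 values), spots of a probe averaged and the brightest named probe per gene. Genes well above background on at least 4 arrays of a fit (2 in the smaller tumours) entered the fits (limma 3.58.1, R 4.3.3), with Benjamini-Hochberg adjustment over all genes and an adjusted p under 0.05 as the threshold. EC and bulk were compared with the mouse as a block, since the labels give both fractions of a tumour the same mouse. The deviations of a mouse's fractions from their group means had an r of -0.03 (resistant mouse 4, whose files carry another mouse number than its labels) to 0.48.

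The 7 serpins and all gene lists were chosen with earlier results of these data known. Named genes were the serpins, up to 4 called genes per list and direction by size, 7 plasminogen and protease genes, and the 5 genes most correlated with Serpinb2, Serpinb9 and Serpinb10. Lists are described by counts and medians. One listed gene is counted but not reported here by name. Alternatives were normexp (offset 50, on the median signal, as the files lack the mean signal), quantile scaling, deposited values, other filters, the mean of a gene's probes, slide or mouse number as a block, and leaving out each array. The number of arrays limits the precision. Nothing states that the mice of a group were separate experiments, so p-values measure the spread between these mice. On simulated data with 100 genes changed by 1 and by 2 (log2), 26 and 60 were recovered for bulk resistant against vehicle, tested on 16972 genes.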

Additional observations from a re-analysis of the deposited data

Results flagged for a closer look

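Of 42 sets of 4 arrays checked (7 serpins in 6 groups), 2 held an array far from the others by Dixon's gap test, and chance gives about 1 in 20. In bulk resistant tumour Serpinb3c was -3.12 in mouse 2, above the other 3 arrays at -5.23 to -4.88, on the array where the probe was not well above background and the lowest level so called was -3.05. Serpinb5 was 0.77 in bulk resistant mouse 4, below the other 3 arrays at 1.56 to 1.69.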

How the results depend on the processing

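Of 743 values of tested serpin differences under the alternatives, 680 kept their direction and their side of the threshold, 16 newly passed, 21 no longer passed and 26 changed sign, none of the 26 called either way. Of 406 values of untested EC differences, 10 moved by more than the replicate spread and 22 changed sign within it. Bulk sensitive minus vehicle changed sign for Serpinb2, from 0.09 to -0.21 in the deposited values, -0.31 with normexp and -1.49 without vehicle mouse 3 (range over the arrays left out -1.49 to 0.84). With arrays left out it also did for Serpinb3c (-0.01 to 0.24), Serpinb5 (-0.10 to 0.74), Serpinb8 (-0.02 to 0.28) and Serpinb9 (-0.34 to 0.09). Resistant minus vehicle did for Serpinb10 (0.37, range -0.63 without vehicle mouse 3 to 0.98), Serpinb5 (-0.23 to 0.45) and Serpinb9 (-0.07 to 0.33, and -0.04 with quantile scaling). Resistant minus sensitive did for Serpinb10 (-0.21 without resistant mouse 2, to 0.81), Serpinb5 (-0.63 to 0.14) and, with the replicate block, Serpinb1a (0.07). Sunitinib in the smaller tumours did for Serpinb1a (-0.61 to 0.46), Serpinb9 (-0.50 to 0.21) and, in the deposited values, Serpinb3c (-0.08). Serpinb3c also did for stage with normexp (-0.08) and for EC against bulk in the deposited values (-0.06). The cause was not tested. Between 600 mm3 and day 9 the serpins called went from 1 to 2 with normexp or the deposited values, and to 0 under the stricter filter on dim probes, where Serpinb10 was not tested; that 1 call is Serpinb10, at background in 3 of the 4 groups. With the mouse number as a replicate block in bulk, where different animals share only a number, the serpins called fell from 2 to 1 against vehicle and against sensitive (Serpinb8, 1.01, adjusted p 0.0514, and 0.89, adjusted p 0.0540, by limma), and genes called became 437, 808 and, for sensitive against vehicle, 2. Without the block for EC against bulk, Serpinb2 (adjusted p 0.229) and Serpinb1a (0.160) no longer passed. Genes called in bulk resistant against vehicle (1354) became 2278 in the deposited values and 2297 with quantile scaling. In bulk sensitive against vehicle, 4 were called from the slide of those groups alone. For stage, 755 became 493 without a filter. For sunitinib in smaller tumours, 0 became 3 with normexp, 1 in the deposited values and 1 with the stricter filter.

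Leaving out each array gave 3 to 5 serpins called for EC against bulk, 1 to 2 for bulk resistant against vehicle and against sensitive, 0 to 0 for bulk sensitive against vehicle, 0 to 2 for stage and 0 to 0 for sunitinib in the smaller tumours. Genes called ran from 8567 to 11955 for EC against bulk, 7194 to 9173 and 6635 to 9220 for EC resistant against vehicle and against sensitive, and 0 to 0 for EC sensitive against vehicle, where 971 had an unadjusted p under 0.05. In bulk they ran from 693 to 5423 for resistant against vehicle, 1169 to 6247 against sensitive and 0 to 3 for sensitive against vehicle, each upper end without resistant mouse 2. They ran from 169 to 866 for stage (169 without 600 mm3 vehicle mouse 4) and 0 to 201 for sunitinib (201 without day 9 sunitinib mouse 2). Slide could not be fitted as a block for any resistant comparison. Where a probe is not well above background, only a bound is known: on all arrays for Serpinb10 in EC resistant, day 9 sunitinib and 600 mm3 tumours, and on 3 of 4 arrays for Serpinb3c in EC resistant. The group with the highest mean was the same in the deposited values for 6 of 7 serpins, Serpinb3c moving to bulk sensitive.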
